A study of Homo sapiens with 6 samples.

Results

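The regulators of G protein signaling (RGS) examined here are 8 human genes, RGS2, RGS3, RGS10, RGS12, RGS14, RGS16, RGS19 and RGS20, followed at every array probe annotated to them. They have 17 probes, and 7 of the 8 genes were among the 10642 genes that passed the filter on dim probes. They were selected on the log2 differences between the 2 lines, with the results of this same contrast known, so the difference of each member between the lines is given as a description and carries no test. The arrays were 6 Illumina HumanHT-12 V4 beadchips, 3 hybridized with RNA of PTTG1+/+ HCT116 cells (labelled WT) and 3 with RNA of PTTG1-/- HCT116 cells (labelled PTTG KO), both grown untreated in standard culture. HCT116 is a human colorectal carcinoma line, and PTTG1, which encodes securin, the inhibitor of separase, was removed in it by homologous recombination. The knockout is a line of its own, so genotype and line coincide, and what else sets the lines apart cannot be told apart from the genotype. Whether the 3 samples of a line were grown as separate cultures is not given in the sources used here, and the p-values below then measure the spread between these samples alone, which may be technical.

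Heterotrimeric G proteins carry signals from seven-pass receptors, being active while their alpha subunit holds GTP. RGS proteins share a domain that speeds the hydrolysis of this GTP and so shortens the signal. The R4 subfamily (here RGS2, RGS3 and RGS16) has little beyond that domain in most of its members, the R12 subfamily (RGS10, RGS12 and RGS14) includes large scaffolds with Ras-binding domains and a GoLoco motif, and the RZ subfamily (RGS19 and RGS20) carries a cysteine string near its amino end. RGS2 is best known for its preference for alpha subunits of the Gq class, and its own RNA is known to be induced by cAMP and by other receptor signals.

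Of the members, RGS2 differed most between the lines and RGS16, of the same subfamily, differed least among the members that passed the filter, so the bases just upstream of their start sites are shown. Both genes lie on human chromosome 1. The sequences are those of RefSeq (GRCh38.p14), 250 bases each and printed 5′ to 3′, RGS2 from chr1:192808789-192809038 on the plus strand and RGS16 from chr1:182604390-182604639 on the minus strand. Capitals mark TGACG, a part of the cAMP response element, which here is on the opposite strand and therefore reads CGTCA. The full element was not searched.
RGS2: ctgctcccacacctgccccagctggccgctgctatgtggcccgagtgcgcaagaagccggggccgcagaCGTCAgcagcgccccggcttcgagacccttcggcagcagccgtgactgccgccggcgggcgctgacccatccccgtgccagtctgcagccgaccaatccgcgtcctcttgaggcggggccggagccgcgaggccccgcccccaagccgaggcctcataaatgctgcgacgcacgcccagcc
RGS16: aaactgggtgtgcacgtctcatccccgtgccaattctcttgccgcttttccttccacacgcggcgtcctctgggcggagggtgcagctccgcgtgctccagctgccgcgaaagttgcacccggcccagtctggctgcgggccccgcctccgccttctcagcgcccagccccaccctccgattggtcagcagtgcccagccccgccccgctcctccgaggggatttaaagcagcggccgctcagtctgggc
The capitals in RGS2 lie at positions -181 to -177 from the start. The RGS2 sequence is 72.8% G or C and that of RGS16 68.4%. Searched on both strands were this part of the cAMP response element (TGACG), the ATF4 composite site TGATGNAA, the forkhead site GTAAACA and the TCF site CTTTGAT. Of the 8 members 7 had entries, 17 in all since several have more than 1 start, and RGS20 had none, so its promoter was not searched. TGACG was present in 3 of these 17 entries (RGS2, 1 of the 5 of RGS3 and 1 of the 5 of RGS12), with no overlap with another motif, and the other motifs were in none. Among all 35097 promoters of the same length TGACG was present in 21.2%, the ATF4 composite site in 3.15%, the forkhead site in 2.98% and the TCF site in 2.26%. Such a match describes the letters in this window and not a bound site.

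All values below are log2 intensities after background correction with an offset of 16 and quantile normalization, and a probe is called above background on an array at a detection p under 0.05. An array had 35.7% to 37.3% of its 47310 probes above background. Of the 2 PTTG1 probes, ILMN_1753196 gave 10.79 ± 0.05 (SD, n = 3) in PTTG1+/+ cells and was not above background on any PTTG1-/- array, which is at least 49.3-fold lower, while ILMN_2042771 was above background on all 6 arrays and 1.87-fold lower (12.03 ± 0.06 against 11.13 ± 0.22, SD, n = 3 each). For such a bound the mean of the brighter line is set against that of the dimmer line, in which a probe under the lowest level called above background is put at that level. Probe positions were not used here, so whether the latter probe lies in the deleted part of the gene was not tested. Of 12 colorectal epithelial markers 6 were above background on all 6 arrays (EPCAM, KRT8, KRT18, KRT19, CDH1 and CDX2) and 5 on none (VIL1, CDX1, LGALS4, CEACAM5 and CLDN4). Their summed linear intensity was 15820 to 16350 on the PTTG1+/+ arrays and 15330 to 16170 on the PTTG1-/- arrays. Among 7 blood cell markers PTPRC, CD3E and LYZ were at background throughout, and the sum was 369.3 to 392.9 against 471 to 519.7. Among 10 fibroblast and endothelial markers 8 were at background throughout, COL1A2, DCN and PECAM1 with them, and the sum was 630.5 to 695.7 in PTTG1+/+ and 999.3 to 1040 in PTTG1-/- cells. Of the 6 epithelial markers tested, EPCAM and CDH1 fell by 0.32 and 0.53 on the log2 scale (limma adjusted p = 0.0339 and adjusted p = 0.00398), and 4 did not pass, with KRT8 at -0.17, KRT18 at 0.06, CDX2 at 0.03 and KRT19 at 0.23 (adjusted p = 0.0525). The other EPCAM probes gave -0.48 (adjusted p = 0.0518) and -0.68 (adjusted p = 0.0117) in a limma fit over every probe. Of the 3 blood markers tested CD68 rose by 0.56 (adjusted p = 0.00192) and HBA1 by 0.44 (adjusted p = 0.0264), with CD14 at -0.03, and of the 2 others ACTA2, smooth muscle actin, rose by 0.87 (adjusted p = 0.000167), with COL1A1 at -0.15. The other CD68 probes gave 0.46 (adjusted p = 0.0395) and 0.37 (adjusted p = 0.149) over every probe. HBA1 read 5.26 to 5.29 in PTTG1+/+ cells, where the lowest level called above background was 5.13 to 5.20. Their part in the results below was not tested.

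RGS2 RNA was lower on every PTTG1-/- array. Its single probe, ILMN_2197365, read 9.26, 9.24 and 9.15 in PTTG1+/+ replicates 1, 2 and 3 and 7.18, 7.21 and 7.41 in PTTG1-/- replicates 1, 2 and 3. The arrays of the lines lay far apart, and the spread within each line was small beside the gap. The means were 9.22 ± 0.06 and 7.27 ± 0.12 (SD, n = 3 each), a log2 difference of -1.95, or 3.87-fold lower in PTTG1-/- cells. The same separation is seen in the deposited intensities before any correction, which were 667, 620.3 and 604.1 in PTTG1+/+ and 179.4, 186.9 and 234.9 in PTTG1-/- cells. The probe was above background on all 6 arrays, so the fall ended at a measured level and not at the floor of the array. Among the 10642 genes it was the 10th largest fall, a description only, as the members were selected on this same difference. Under the 12 other ways of processing the difference ran from -2.02 to -1.70, and the values closest to zero came without background correction, in the authors' values and with an offset of 50. The mean of a gene's probes, 1 of the 12, cannot change the value of a gene with a single probe. In RNA of a whole culture, fewer cells with the transcript and less of it per cell cannot be told apart.

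**Figure D1:**
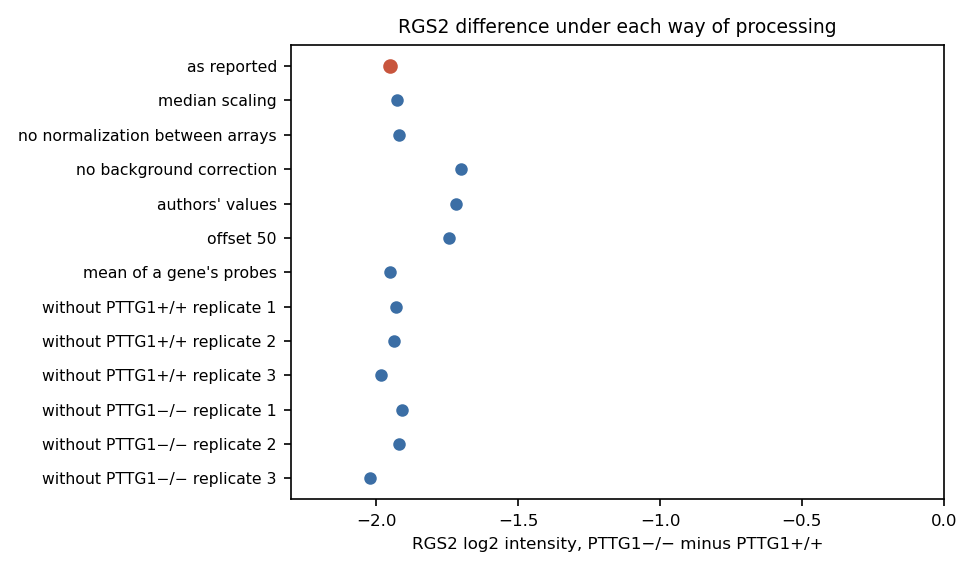
RGS2 log2 intensity in PTTG1-/- minus PTTG1+/+ cells (x axis) under each way of processing (y axis), with the value as reported in red and the alternatives in blue. All points lie between -2.02 and -1.70.

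The other R4 members showed no such separation. RGS16, which acts on alpha subunits of the Gi and Gq classes, read 6.18, 6.26 and 6.28 in PTTG1+/+ and 6.22, 6.41 and 6.28 in PTTG1-/- cells at its single probe, ILMN_1808226. The 2 lines overlapped, with means of 6.24 ± 0.05 and 6.30 ± 0.10 (SD, n = 3 each) and a log2 difference of 0.06. RGS3, which also acts on Gi and Gq alpha subunits and has long and short forms, had 5 probes, none of them above background on all 6 arrays. The brightest, ILMN_1731478, was above background on 2 arrays of each line and read 5.15, 5.55 and 5.52 in PTTG1+/+ and 5.38, 5.15 and 5.25 in PTTG1-/- cells. These values overlapped, and the log2 difference was -0.15 (5.41 ± 0.23 against 5.26 ± 0.12, SD, n = 3 each). Probe ILMN_1763371 of RGS3 was above background on PTTG1+/+ replicate 3 alone (5.39), so no fold is given, and ILMN_1724349, ILMN_1728711 and ILMN_2248655 were not above background on any array.

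In the R12 subfamily, RGS10 and RGS12 were measured on all arrays and RGS14 was near the background. RGS10, a small protein that acts on Gi alpha subunits, was read by 2 probes above background on all 6 arrays. At the brighter, ILMN_1733538, it read 10.88, 10.64 and 10.61 in PTTG1+/+ and 10.89, 10.68 and 10.84 in PTTG1-/- cells, with a log2 difference of 0.09 (10.71 ± 0.15 against 10.80 ± 0.11, SD, n = 3 each). At ILMN_1668559 it read 8.20, 8.19 and 8.18 against 8.33, 8.37 and 8.24, a log2 difference of 0.12. The lines overlapped at the first of these probes and not at the other, where the gap between them was small, and the third RGS10 probe, ILMN_1811890, was at background on all arrays.

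RGS12, a scaffold for Ras and MAP kinase components, read 6.92, 6.96 and 7.01 in PTTG1+/+ and 7.24, 7.01 and 7.05 in PTTG1-/- cells at ILMN_1722834 (log2 difference 0.14, 6.96 ± 0.04 against 7.10 ± 0.12, SD, n = 3 each). Without PTTG1-/- replicate 1 the difference of RGS12 was 0.069. The lines met without overlap, the highest PTTG1+/+ and the lowest PTTG1-/- array both rounding to 7.01, and ILMN_1751141 and ILMN_2384629 of this gene were at background throughout. RGS14, the other scaffold with a GoLoco motif, was the member that did not pass the filter. Its probe ILMN_1696828 read 4.90, 4.91 and 4.69 in PTTG1+/+ and 5.17, 5.48 and 5.09 in PTTG1-/- cells, and was above background on PTTG1-/- replicate 2 alone. All 3 PTTG1-/- arrays lay above the PTTG1+/+ arrays (5.24 ± 0.21 against 4.83 ± 0.13, SD, n = 3 each), but with 5 of the 6 values not above background no fold is given.

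The RZ members were somewhat higher in PTTG1-/- cells. RGS19, known as GAIP from its binding to Gi alpha subunits, read 7.67, 7.43 and 7.52 in PTTG1+/+ and 7.70, 7.76 and 7.86 in PTTG1-/- cells at its single probe, ILMN_1677085. The lines did not overlap, although PTTG1+/+ replicate 1 came close to PTTG1-/- replicate 1, and the log2 difference was 0.23 (7.54 ± 0.12 against 7.77 ± 0.08, SD, n = 3 each). RGS20, which prefers the Gz alpha subunit, read 6.79, 6.997 and 7.01 against 7.10, 7.09 and 7.23 at ILMN_1738558, a log2 difference of 0.21 (6.93 ± 0.12 against 7.14 ± 0.08, SD, n = 3 each). Without PTTG1+/+ replicate 1 the RGS20 difference was 0.14. Again no arrays of the 2 lines overlapped, and its other probe, ILMN_1711288, was at background on all 6 arrays.

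**Figure D2:**
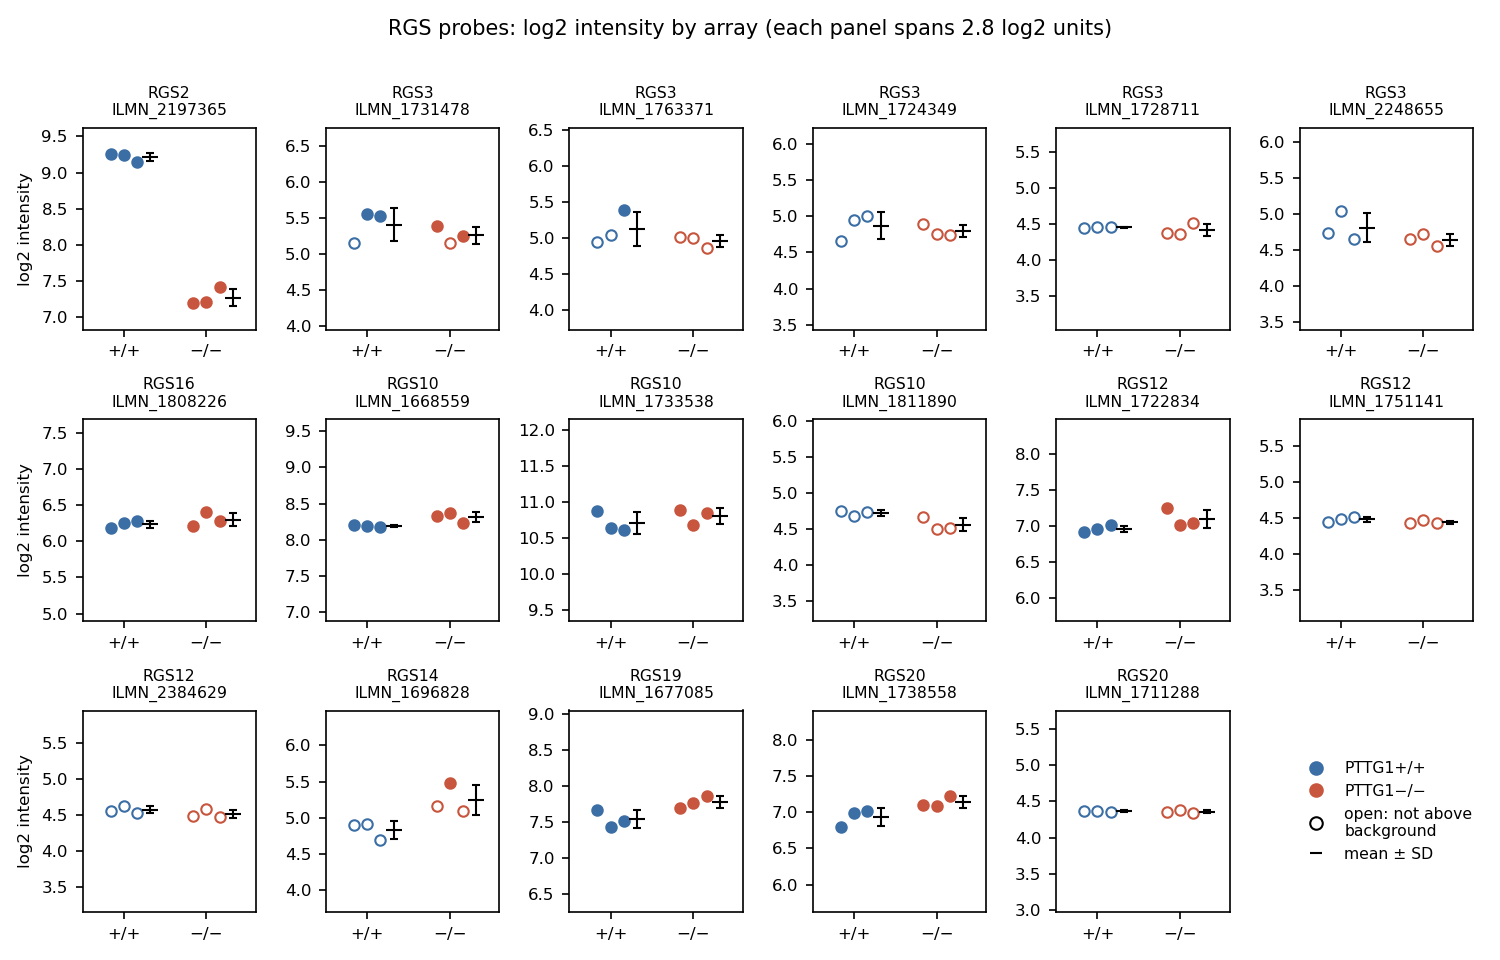
Log2 intensity (y axis) of each of the 17 RGS probes on the 3 PTTG1+/+ (blue) and 3 PTTG1-/- (red) arrays, with open points not above background and black marks for the mean ± SD. Every panel spans the same number of log2 units, and RGS2 is the panel in which the lines stand furthest apart.

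Over the 17 probes, 7 were above background on all 6 arrays, 3 on 1 to 5 arrays and 7 on none. The last 7 read 4.34 to 5.04, under the lowest level called above background, which was 5.13 to 5.20 depending on the array. By gene, 6 of the 8 members had a probe above background on all arrays (RGS3 and RGS14 did not), and 4 rested on a single probe, RGS2 among them. At the probes used for the 7 members that passed the filter, the lines did not overlap in 4, RGS2 being lower and RGS12, RGS19 and RGS20 higher, where 36.1% of all 10642 genes did not overlap. As the members were selected with this contrast known, nothing is read from that count. Apart from RGS2 the differences of these members lay between -0.15 and 0.23, and their median, RGS2 included, was 0.09 beside 0.00105 over all genes tested.

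**Figure D3:**
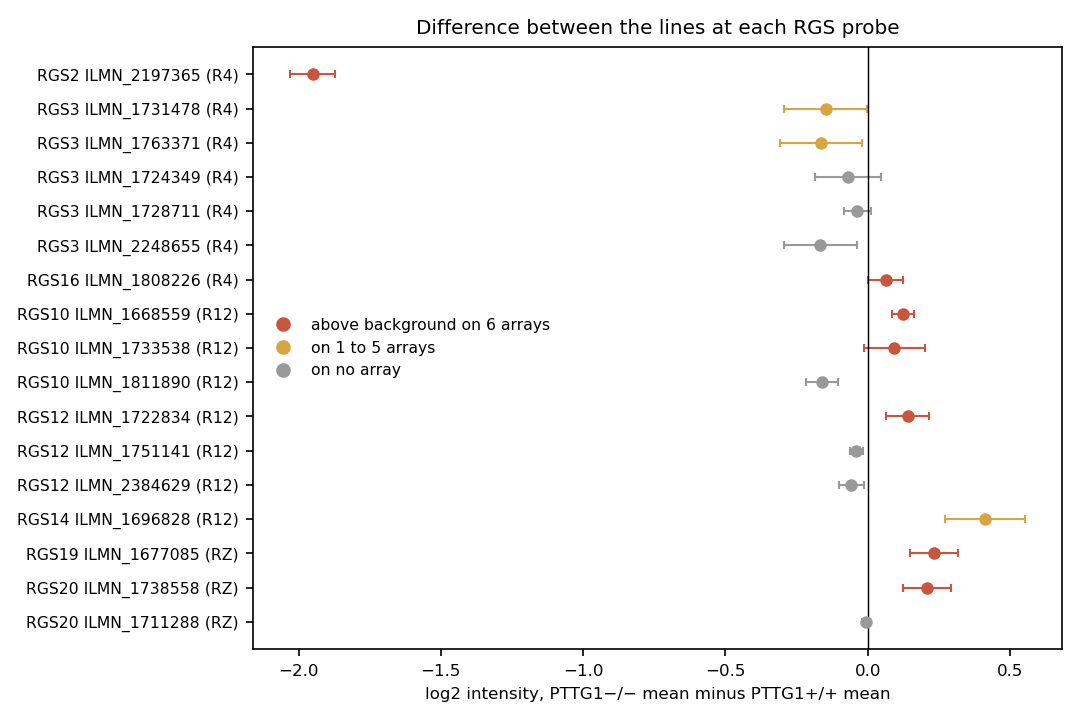
Log2 intensity of the PTTG1-/- mean minus the PTTG1+/+ mean (x axis) for each of the 17 RGS probes (y axis, with the subfamily), colored by the number of arrays above background, with bars of 1 standard error from the 2 lines' SDs. RGS2 stands at -1.95, and all other probes above background on 6 arrays lie between 0.06 and 0.23.

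The remaining RGS genes were asked about next, since another member of the family could have differed as RGS2 did. Of 13 on the arrays 6 were tested, RGS4, RGS5, RGS8 and RGS21 of the R4 subfamily, RGS17 of the RZ subfamily and RGS22. None passed limma at an adjusted p under 0.05, and none was under 0.05 before adjustment either. All but RGS17 were dim, with line means from 5.31 (RGS22, PTTG1-/-) to 5.75 (RGS4, PTTG1-/-). The lowest level called above background was 5.13 to 5.20, so little is read from the differences of these dim genes. The other RGS5 probe, ILMN_2082273, was at background on all 6 arrays. The log2 differences of the 6 genes lay between -0.13 (RGS22, SE 0.081, adjusted p = 0.322) and 0.10 (RGS8, SE 0.082, adjusted p = 0.446), with a median of 0.00. RGS17, the nearest relative of RGS20 among them, read 7.12, 7.08 and 7.19 in PTTG1+/+ and 7.16, 7.03 and 6.99 in PTTG1-/- cells (log2 difference -0.07, SE 0.080, adjusted p = 0.584). RGS1, RGS13 and RGS18, which are known from blood cells, and RGS6, RGS7, RGS9 and RGS11, the R7 subfamily that pairs with a G beta subunit, did not pass the filter on dim probes.

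RGS2 lies on chromosome 1 among several other RGS genes, and its neighbors were looked at after its value had been seen. Of the 6 protein-coding genes on each side in the RefSeq order, all 12 were on the arrays and 4 were tested. GLRX2, a mitochondrial glutaredoxin that is the third gene downstream, was lower in PTTG1-/- cells (log2 difference -0.70, SE 0.134, limma adjusted p = 0.00814). Between RGS2 and GLRX2 lie UCHL5, at -0.02 (adjusted p = 0.939), and RO60, at -0.27 (adjusted p = 0.0636). RGS21, upstream, was at 0.01 (adjusted p = 0.975). RGS1, RGS13 and RGS18, the other RGS genes of the stretch, were at background on all 6 arrays. The remaining neighbors did not pass the filter on dim probes either. With 1 of 4 called, beside 17.4% of all genes tested, nothing is read from that count or from the place of GLRX2.

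Genes that followed RGS2 across the 6 arrays were taken by Pearson's r, as a description. The 5 highest were ID2, which blocks helix-loop-helix factors (r = 0.9990), MKX, a homeobox factor (r = 0.9985), GLYR1, a nucleosome-binding cofactor (r = 0.9984), RPRD2, which binds RNA polymerase II (r = 0.9982), and SCNN1A, the alpha subunit of the epithelial sodium channel (r = 0.9981). All 5 were lower in PTTG1-/- cells, as so high an r with RGS2 requires, by log2 differences of -2.12, -2.84, -1.25, -0.33 and -0.63. An r above 0.95 was reached by 374 genes, since with 2 lines of 3 arrays any gene with a fall in PTTG1-/- cells that is wide beside its spread reaches a high r.

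The G protein pathway around the RGS genes was then tested in 9 lists of other genes. Of 101 genes tested 8 were higher and 8 lower in PTTG1-/- cells (limma, Benjamini-Hochberg adjusted p under 0.05 over all 10642 genes), which is 15.8%, beside 17.4% of all genes tested (9.58% higher and 7.78% lower). These 101 genes had a median difference of -0.01 on the log2 scale. A share of this size is near the background, so the lists together are no result about the pathway. The count of 16 was 10, 9 and 10 without PTTG1+/+ replicate 1, PTTG1+/+ replicate 2 and PTTG1-/- replicate 2, 10 when arrays were not normalized and 6 under the methods' t-test.

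Among the substrates of RGS proteins, 1 of 10 G alpha subunits tested differed, GNAI1, a Gi subunit, which read 7.62, 7.39 and 7.45 in PTTG1+/+ and 7.01, 7.10 and 7.10 in PTTG1-/- cells. It fell by 0.42 on the log2 scale (SE 0.085, limma adjusted p = 0.0109), while its other probe, ILMN_2131467, gave -0.20 (adjusted p = 0.477 in a fit over every probe). GNAQ and GNA11, the Gq class subunits on which RGS2 acts, did not pass (log2 difference 0.23 with adjusted p = 0.268 for GNAQ, 0.01 with adjusted p = 0.949 for GNA11), nor did GNAZ, the substrate that RGS20 prefers (adjusted p = 0.0827), which was above background on only 1 PTTG1+/+ array. GNAQ was dim, at 5.64 ± 0.04 in PTTG1+/+ and 5.87 ± 0.28 in PTTG1-/- cells (SD, n = 3 each). The lowest level called above background was 5.13 to 5.20. Of 10 beta and gamma subunits tested, GNG4, a gamma subunit, fell by 0.84 (SE 0.119, limma adjusted p = 0.00201), from 6.78, 6.78 and 6.80 to 5.81, 6.23 and 5.79, and the rest did not pass. The GNAI1 call ended with median scaling, without normalization, with the mean of its probes and with the methods' t-test (adjusted p up to 0.0865), and that of GNG4 with the methods' t-test (adjusted p = 0.0506). Without background correction the GNG4 difference was -0.55.

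Among proteins that carry an RGS homology domain, the receptor kinases GRK5 and GRK2 rose and the other 9 of 11 did not pass. GRK5 read 7.61, 7.60 and 7.43 in PTTG1+/+ and 8.11, 8.08 and 8.12 in PTTG1-/- cells at the probe used, a log2 difference of 0.56 (SE 0.080, limma adjusted p = 0.00216). Its other probe, ILMN_1728830, gave -0.01 (adjusted p = 0.976 over every probe), so the 2 probes of GRK5 disagree. GRK2, which also binds Gq alpha subunits through this domain, rose by 0.29 (SE 0.075, limma adjusted p = 0.0289). AXIN2, a scaffold of the Wnt pathway with such a domain, had a difference of -0.27 (adjusted p = 0.061). Of 12 modulators and RGS partners NUCB1, a calcium-binding protein that binds G alpha subunits, rose by 0.39 (SE 0.075, adjusted p = 0.00849), and 11 did not pass. When any array other than PTTG1-/- replicate 3 was left out GRK2 no longer passed (adjusted p = 0.055 to 0.0991). Nor did GRK2 pass with median scaling (adjusted p = 0.103), without normalization (adjusted p = 0.116) or with the replicate number as a block (adjusted p = 0.0625). With the mean of a gene's probes GRK5 did not (difference 0.27, adjusted p = 0.0657).

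Of 17 effectors tested, 3 fell and 2 rose, which is 29.4% beside 17.4% of all genes tested (9.58% higher and 7.78% lower). PLCB1, the phospholipase C that Gq alpha subunits activate, fell by 0.50 on the log2 scale (SE 0.079, limma adjusted p = 0.00336), reading 6.55, 6.62 and 6.49 in PTTG1+/+ and 6.02, 5.98 and 6.13 in PTTG1-/- cells. ITPR1, the calcium channel opened by the product of that enzyme, fell by 0.52 (SE 0.094, adjusted p = 0.0064), 2 of its 3 PTTG1-/- values being above background. PRKAR1B, a regulatory subunit of the cAMP-dependent kinase, read 6.00, 5.35 and 5.38 in PTTG1+/+ cells. It was not above background on any PTTG1-/- array and was at least 1.33-fold lower. Since it passed the filter on dim probes through the PTTG1+/+ arrays alone, its limma call (adjusted p = 0.00867) is not read as support. It is still counted among the 3 that fell and in the share of 29.4%. As the list was chosen with earlier results known, nothing particular to it is read from that share. PRKACB, a catalytic subunit of that kinase, rose by 0.76 (SE 0.150, adjusted p = 0.00975), and ADCY7, an adenylyl cyclase, rose by 0.34 (SE 0.094, adjusted p = 0.0356). Without background correction, in the authors' values or with an offset of 50 the difference lay between -0.30 and -0.29 for ITPR1, -0.35 and -0.33 for PLCB1, -0.53 and -0.43 for PRKAR1B, and 0.203 and 0.22 for ADCY7. ADCY7 fell short of the threshold without background correction (adjusted p = 0.0575), in the authors' values (adjusted p = 0.0513) and without normalization (adjusted p = 0.0585). It also did when any array other than PTTG1-/- replicate 3 was left out (adjusted p = 0.0553 to 0.126). The same held with no filter on dim probes (adjusted p = 0.0576), a variance trend (adjusted p = 0.0567) or the replicate number as a block (adjusted p = 0.0709). With the methods' t-test ADCY7, ITPR1, PRKAR1B and PRKACB all lost their call (adjusted p = 0.119, adjusted p = 0.0571, adjusted p = 0.105 and adjusted p = 0.108).

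Of 24 receptors tested, LPAR1, a receptor for lysophosphatidic acid, rose by 0.48 (SE 0.105, limma adjusted p = 0.0146) and ADORA2B, an adenosine receptor, by 0.31 (SE 0.080, adjusted p = 0.0301). Of 5 arrestins ARRB1, which uncouples receptors from G proteins, rose by 0.38 at the probe used (SE 0.104, adjusted p = 0.0341), while its other probes gave 0.30 (adjusted p = 0.0582) and 0.20 (adjusted p = 0.199) when each was tested by itself. None of these 3 calls held in every alternative. LPAR1 did not pass without PTTG1+/+ replicate 1 or 2 (adjusted p = 0.0579 to 0.0597), ADORA2B failed unless the array left out was PTTG1-/- replicate 1 or 3 (otherwise adjusted p = 0.0636 to 0.0874), and ARRB1 failed unless it was replicate 3 of either line (otherwise adjusted p = 0.0909 to 0.101). With the methods' t-test none of the 3 passed (adjusted p = 0.0667 to 0.138), and ADORA2B did not with median scaling (adjusted p = 0.125) or without normalization (adjusted p = 0.138). With the replicate number as a block ADORA2B (adjusted p = 0.0661) and ARRB1 (adjusted p = 0.065) failed. ARRB1 also failed with no filter on dim probes (adjusted p = 0.0639).

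Among 6 genes tested that cAMP is known to induce, as it does RGS2, 3 passed as lower in PTTG1-/- cells and none passed as higher. That is 50% of a short list chosen with earlier results known, beside 7.78% of all genes tested that were lower, and nothing particular to the list is read from it. DUSP1, a phosphatase of MAP kinases, read 8.19, 8.27 and 8.18 in PTTG1+/+ and 7.78, 7.69 and 7.85 in PTTG1-/- cells and fell by 0.44 on the log2 scale (SE 0.078, limma adjusted p = 0.00576). PDE4B, which degrades cAMP, fell by 0.44 (SE 0.104, adjusted p = 0.0192), and its probe ILMN_1782922 gave -0.25 (adjusted p = 0.147 over every probe). NR4A2, an orphan nuclear receptor, fell by 0.31 (SE 0.090, adjusted p = 0.0455), and by 0.72 at ILMN_2339955 (adjusted p = 0.00127 by itself). The 3 others did not pass, FOS at -0.25 (adjusted p = 0.112), FOSB at -0.02 (adjusted p = 0.9) and SIK1, which was higher, at 0.24 (adjusted p = 0.29). The median of the 6 genes was -0.28, beside 0.00105 over all genes. PDE4B did not pass when any array other than PTTG1-/- replicate 3 was left out (adjusted p = 0.0543 to 0.0674), nor NR4A2 unless that array was replicate 3 of either line (otherwise adjusted p = 0.0924 to 0.155). Both also failed with median scaling (adjusted p = 0.079 for PDE4B, 0.174 for NR4A2) and without normalization (adjusted p = 0.0923 for PDE4B, 0.203 for NR4A2), and with the mean of its probes NR4A2 was at -0.51. With the methods' t-test neither passed (adjusted p = 0.106 for PDE4B, 0.12 for NR4A2). NR4A2 failed too with no filter on dim probes (adjusted p = 0.0664), a variance trend (adjusted p = 0.0516) or the replicate number as a block (adjusted p = 0.0888).

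**Figure D4:**
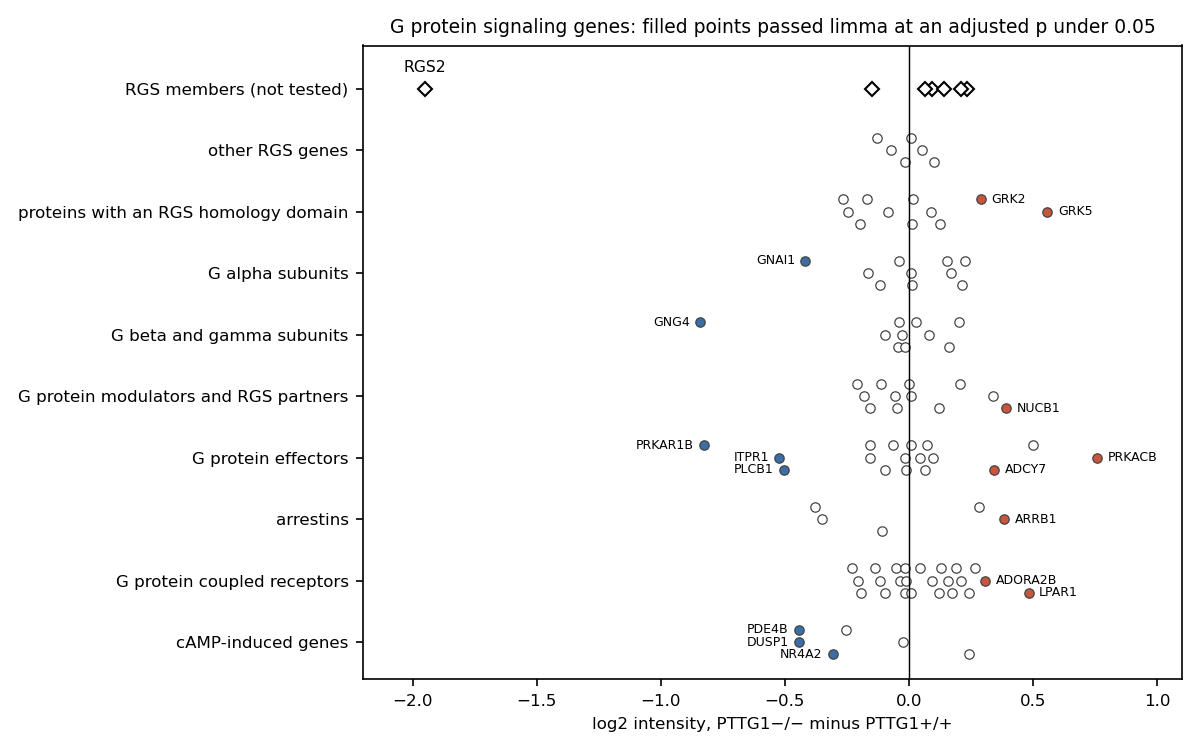
Log2 intensity in PTTG1-/- minus PTTG1+/+ cells (x axis) for the 7 RGS members that passed the filter (diamonds, not tested) and for the tested genes of 9 G protein signaling lists (circles), with genes past limma at an adjusted p under 0.05 filled red where higher and blue where lower. Over the lists 8 genes were higher and 8 lower, between -0.84 and 0.76, and RGS2 lies at -1.95.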

How the data were processed

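RNA of 6 HCT116 samples, 3 PTTG1+/+ and 3 PTTG1-/-, was labelled with biotin and hybridized to Illumina beadchips of 1 color. Raw data went through the manufacturer's protocol and Partek, with scanner software and normalization not given in the sources used here. The authors deposited unnormalized intensities on a linear scale without background subtraction, a fraction per probe and array whose header calls it a detection p although it increases with brightness (1 minus it was used), and processed log2 values with the same distribution on every array. These log2 values served as an alternative.

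In R 4.3.3 with limma 3.58.1, intensities were background corrected (neqc, offset 16), quantile normalized and put on the log2 scale, after 12 lines with no probe name were left out. Probes with a detection p under 0.05 on at least 3 of 6 arrays were kept (17357 of 47310), of which 13686 had 1 gene in the platform annotation and 3668 were unnamed here. The probe with the highest mean stood for each gene (10642 genes). Lines were compared by lmFit and eBayes with Benjamini-Hochberg adjustment, and the scripts were tested on simulated data. Total intensity and the number of arrays limit the precision, and an exact permutation test of 3 arrays against 3 cannot go below p = 0.1, so none was run. Replicate numbers were not used to pair samples. No probe coordinates are given, as no build is named for these arrays, and promoter sequences and their coordinates are those of RefSeq.

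The RGS members and the gene lists were chosen with earlier results of these data known. Named are all members at every probe, up to 4 genes past the threshold in each list (and ADCY7, to complete the effectors), the 5 genes most like RGS2 and PTTG1. RGS4, RGS5, RGS8, RGS17, RGS22, GNAQ, GNA11, GNAZ and AXIN2 were named outside that rule after their values were seen. So were FOS, FOSB, SIK1, the cell type markers and the neighbors of RGS2. The alternatives were median scaling, no normalization, no background correction, the authors' values, an offset of 50, other filters on dim probes, the mean of a gene's probes, a variance trend, the replicate number as a block, the methods' t-test and leaving out each array in turn.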

Additional observations from a re-analysis of the deposited data

How the results depend on the processing

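The RGS2 difference of -1.95 kept its sign in all 12 alternatives, of which the mean of a gene's probes could not change it, as RGS2 has a single probe. It was -1.70 without background correction, -1.72 in the authors' values, -1.74 with an offset of 50, and -2.02 to -1.91 with each array left out in turn. Of the values of the other member probes under the alternatives, 168 moved by less than 1 SD, pooled over the lines, and 8 by more. With 3 arrays per line, leaving 1 out cannot move a difference by that much, so those values had to fall among the 168. The 8 came without background correction, in the authors' values and with an offset of 50. Small differences could still change by over 1.5 times with 1 array left out, as for RGS16 (0.01 to 0.11), RGS10 probe ILMN_1733538 (0.04 to 0.18) and RGS3 probe ILMN_1731478 (-0.28 to -0.075). RGS20 probe ILMN_1711288, at background, was the only member probe to cross zero (0.0028 without PTTG1-/- replicate 3).

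The 16 pathway genes called became 10 with no normalization between arrays, 6 with the methods' t-test (the cause was not tested) and 9 to 22 with each array left out in turn. Of these 16 genes, NUCB1, PLCB1 and DUSP1 kept their call in every alternative run, 7 lost it without at least 1 array, and none changed direction. Over all 10642 genes the calls numbered 1847, and 1140 with median scaling, 1044 with no normalization, 931 with the methods' t-test (2924 before adjustment) and 1009 to 2183 with each array left out.

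After normalization, the deviations from the line mean of samples that share a replicate number had correlations of -0.0737, -0.00404 and -0.115 for numbers 1, 2 and 3. Samples of unlike number were not set beside these, and whether samples of 1 number were handled together was not tested. With the replicate number as a block 11 pathway genes were called, 4 higher and 7 lower, and 1345 genes in all. Of the 17 member probes, 10 were not above background on all arrays, so the signal limits what they show.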
